A study of Mus musculus with 15 samples.

Results

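Ankrd1, Ankrd23, Xirp1, Xirp2 and Nrap, 5 of the 13657 genes in the deposited table, encode strain-sensitive muscle ankyrin repeat and actin-binding repeat proteins. They were chosen by symbol, with earlier results of their levels in this study known. Their levels against unstretched cells and between stretch groups are therefore given as a description. All 5 passed the filter on low values, which kept 12114 genes. The libraries came from neonatal cardiac myocytes of C57BL/6 mice attached to a silicone (PDMS) sheet, and hold poly(A) RNA sequenced without strand. Cells were held under static stretch of 14% along the primary axis and 3.6% along the orthogonal axis. The groups were longitudinal stretch for 4 h, transverse stretch for 4 h, longitudinal stretch for 30 min, transverse stretch for 30 min, and non-stretched control cells, with 3 stretch devices (A, B and C) in each of the 5 groups. The series title poses the question of axis dependence.

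Muscle ankyrin repeat proteins bind the elastic I-band part of titin, the giant spring of the sarcomere, and can also enter the nucleus, which places them between mechanical load and gene expression. Ankrd1 (also called CARP) is a cardiac transcriptional cofactor that rises in overloaded and failing hearts. Ankrd23 (also called DARP) is its relative in heart and skeletal muscle, and was first described in work on diabetic muscle. Xirp1 and Xirp2 carry Xin repeats that bind and bundle actin filaments at the intercalated disc, the junction between cardiac myocytes. Nrap, the nebulin-related anchoring protein, is a scaffold for new myofibrils and links thin filaments to the disc.

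In the deposited table (mouse build mm9), Ankrd1 lies on chromosome 19 from 36186455 to 36194334 and Nrap on chromosome 19 from 56362428 to 56464525. Ankrd23 lies on chromosome 1 from 36587379 to 36592574, Xirp1 on chromosome 9 from 119922873 to 119932716, and Xirp2 on chromosome 2 from 67284059 to 67364663. None of the 5 entries overlapped another entry of the table (0 overlapping entries each). The Nrap entry spans 102098 bases, against 70026 bases for the gene in RefSeq on GRCm38.

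The upstream sequences of the genes are shown as a description. Whether they bear on the movement of the 5 transcripts across libraries was not tested. RefSeq promoter entries (GRCm38.p6) were matched for 4 of the 5 members, all but Xirp1, with a pair of start sites for Ankrd23. Each line gives the 250 bases before the start, 5′ to 3′ on the gene's strand, with matches to the searched motifs in capitals.
Ankrd1, chr19:36119845-36120094, minus strand: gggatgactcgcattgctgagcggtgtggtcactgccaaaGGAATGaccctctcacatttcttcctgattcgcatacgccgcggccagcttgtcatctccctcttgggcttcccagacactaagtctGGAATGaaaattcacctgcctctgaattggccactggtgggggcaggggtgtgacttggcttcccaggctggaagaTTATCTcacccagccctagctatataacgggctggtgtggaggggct
Ankrd23, first start, chr1:36536557-36536806, minus strand: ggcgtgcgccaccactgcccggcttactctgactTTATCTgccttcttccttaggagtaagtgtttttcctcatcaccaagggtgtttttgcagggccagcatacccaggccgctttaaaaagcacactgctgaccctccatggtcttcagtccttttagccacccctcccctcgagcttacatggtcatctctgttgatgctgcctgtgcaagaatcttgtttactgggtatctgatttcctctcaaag
Ankrd23, second start, chr1:36535740-36535989, minus strand: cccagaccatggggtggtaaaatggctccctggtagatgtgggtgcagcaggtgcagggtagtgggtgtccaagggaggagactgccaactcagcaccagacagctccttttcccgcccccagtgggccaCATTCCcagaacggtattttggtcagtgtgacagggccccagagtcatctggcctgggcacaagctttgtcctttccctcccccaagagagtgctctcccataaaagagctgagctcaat
Xirp2, chr2:67445752-67446001, plus strand: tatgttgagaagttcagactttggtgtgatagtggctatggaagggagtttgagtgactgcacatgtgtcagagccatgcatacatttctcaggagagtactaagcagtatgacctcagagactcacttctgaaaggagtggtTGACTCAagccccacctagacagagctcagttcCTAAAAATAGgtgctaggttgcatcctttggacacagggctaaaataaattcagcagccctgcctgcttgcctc
Nrap, chr19:56390039-56390288, minus strand: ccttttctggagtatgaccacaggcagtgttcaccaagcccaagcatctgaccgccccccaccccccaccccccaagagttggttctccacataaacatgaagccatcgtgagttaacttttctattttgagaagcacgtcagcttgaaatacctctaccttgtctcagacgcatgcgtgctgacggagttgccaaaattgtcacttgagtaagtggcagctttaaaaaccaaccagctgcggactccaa

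Motifs were searched on both strands in 300 bases, from 250 before to 50 after the start, of 32851 promoters. They were GGAATG (TEAD or MCAT element, in 14.7% of promoters), TGANTCA (AP-1, 7.81%), AGATAA (bound by GATA factors, 11.2%), TGACGTCA (CRE, 1.79%), the CArG box (1.63%) and the MEF2 site (3.19%). The matches printed do not overlap. Ankrd1 held GGAATG with its first base at -210 and at -123, and TTATCT, the reverse complement of the GATA motif, at -47. The first Ankrd23 start had TTATCT at -216, and CATTCC, the reverse complement of GGAATG, at 37 after the start, outside the printed bases. The second had CATTCC at -120. Xirp2 held the AP-1 match TGACTCA at -107 and a MEF2 match, CTAAAAATAG, at -74. The Nrap window held none of the searched letters. These matches are letters in a window and were not tested as binding sites.

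Relative sequencing depth, read from the steps between the lowest values, ranged from 0.671 in transverse 30 min library B to 1 in transverse 30 min library A. The value for transverse 30 min library B was within 1% of the ratio seen with 9 of the 14 other libraries, and that of every other library with 13 or 14. Absolute depth is unknown. The 6 myocyte markers in the table summed to between 6264 and 8069 FPKM (fragments scaled to transcript length and to the mapped total) in every library, which matches the labelled cell type. Fibroblast markers (10 of 10 in the table) summed to between 2057 and 2762 FPKM, macrophage markers to between 290 and 449 FPKM, and endothelial markers to between 21.9 and 45.7 FPKM. Skeletal muscle markers (5 of 9 in the table) summed to between 423 and 872 FPKM, nearly all from Ckm, Acta1 and Tnnt3, while the myogenic factor Myog averaged 0.296 FPKM. In bulk RNA, fewer cells of a type and less RNA per cell cannot be told apart.

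Ankrd1 was among the most abundant transcripts of the culture, ranking 6 of 12114 genes by mean FPKM. It had 5425, 3899 and 5795 FPKM in the longitudinal 4 h libraries A, B and C, and 3323, 4480 and 2520 FPKM in the transverse 4 h libraries. The longitudinal 30 min libraries had 2828, 2802 and 4834 FPKM, the transverse 30 min libraries 1860, 4635 and 1118 FPKM, and the control libraries 3610, 1096 and 2374 FPKM. Every longitudinal 4 h library was above every control library, while each other stretch group overlapped the control. By mean the order was longitudinal 4 h (5040 ± 1005 FPKM), longitudinal 30 min (3488 ± 1166), transverse 4 h (3441 ± 985), transverse 30 min (2538 ± 1854) and control (2360 ± 1257) (SD, n = 3 each). Neighbours in that order differed by less than the sum of their SDs.

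Ankrd23 was present at a far lower level per transcript length. It had 191, 112 and 216 FPKM in the longitudinal 4 h libraries, 102, 150 and 51.8 FPKM in the transverse 4 h libraries, 83.0, 86.2 and 182 FPKM in the longitudinal 30 min libraries, 79.0, 173 and 44.7 FPKM in the transverse 30 min libraries, and 97.7, 41.6 and 85.0 FPKM in the control libraries. Longitudinal 4 h again stood wholly above control and overlapped every other stretch group. The group means were 173 ± 54.4, 101 ± 49.2, 117 ± 56.3, 98.8 ± 66.2 and 74.7 ± 29.4 FPKM, with the groups taken in the same sequence as the library values (SD, n = 3 each). The ratio of Ankrd1 to Ankrd23 FPKM lay between 23.5 and 48.7 in the 15 libraries.

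Xirp1 had 123, 75.7 and 213 FPKM in the longitudinal 4 h libraries and 50.02, 70.4 and 51.9 FPKM in the transverse 4 h libraries. It had 63.1, 63.3 and 126 FPKM in the longitudinal 30 min libraries, 53.0, 137 and 44.8 FPKM in the transverse 30 min libraries, and 53.2, 34.96 and 44.7 FPKM in the control libraries. Both longitudinal groups stood wholly above the control for this actin-bundling protein, and longitudinal 4 h also stood wholly above transverse 4 h. Means were 137 ± 69.9 FPKM for longitudinal 4 h, 84.3 ± 36.5 for longitudinal 30 min, 78.1 ± 50.9 for transverse 30 min, 57.4 ± 11.3 for transverse 4 h and 44.3 ± 9.13 for control (SD, n = 3 each), and neighbours in this order differed by less than the sum of their SDs.

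Xirp2 had the widest range of the 5 genes. It had 233, 110 and 360 FPKM in the longitudinal 4 h libraries, 32.0, 89.0 and 14.3 FPKM in the transverse 4 h libraries, 45.6, 26.2 and 122 FPKM in the longitudinal 30 min libraries, 24.6, 263 and 11.9 FPKM in the transverse 30 min libraries, and 33.4, 15.4 and 38.5 FPKM in the control libraries. Longitudinal 4 h stood wholly above both transverse 4 h and control. Means were 234 ± 125 FPKM for longitudinal 4 h, 100 ± 142 for transverse 30 min, 64.5 ± 50.5 for longitudinal 30 min, 45.1 ± 39.0 for transverse 4 h and 29.1 ± 12.1 for control (SD, n = 3 each), with neighbours again closer than the sum of their SDs. Within transverse 30 min the highest library was 22.1 times the lowest. Xirp2 was above Xirp1 in all 3 longitudinal 4 h libraries, with an FPKM ratio of 1.89, 1.45 and 1.69, and below it in all 3 control libraries, with a ratio of 0.629, 0.440 and 0.862. In the other 9 libraries the ratio was above 1 in transverse 4 h library B (1.26) and transverse 30 min library B (1.93), and between 0.266 and 0.964 elsewhere.

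Nrap, the myofibril scaffold, had 210, 113 and 301 FPKM in the longitudinal 4 h libraries and 67.1, 118 and 58.3 FPKM in the transverse 4 h libraries. It had 74.1, 59.0 and 131 FPKM in the longitudinal 30 min libraries, 65.6, 173 and 37.5 FPKM in the transverse 30 min libraries, and 88.0, 40.9 and 65.6 FPKM in the control libraries. Longitudinal 4 h lay above control in every library and overlapped transverse 4 h by 1 library. Means were 208 ± 94.0 FPKM for longitudinal 4 h, 91.9 ± 71.3 for transverse 30 min, 88.0 ± 37.8 for longitudinal 30 min, 81.3 ± 32.5 for transverse 4 h and 64.8 ± 23.6 for control (SD, n = 3 each). Again no pair of neighbours differed by more than the sum of their SDs.

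**Figure D1:**
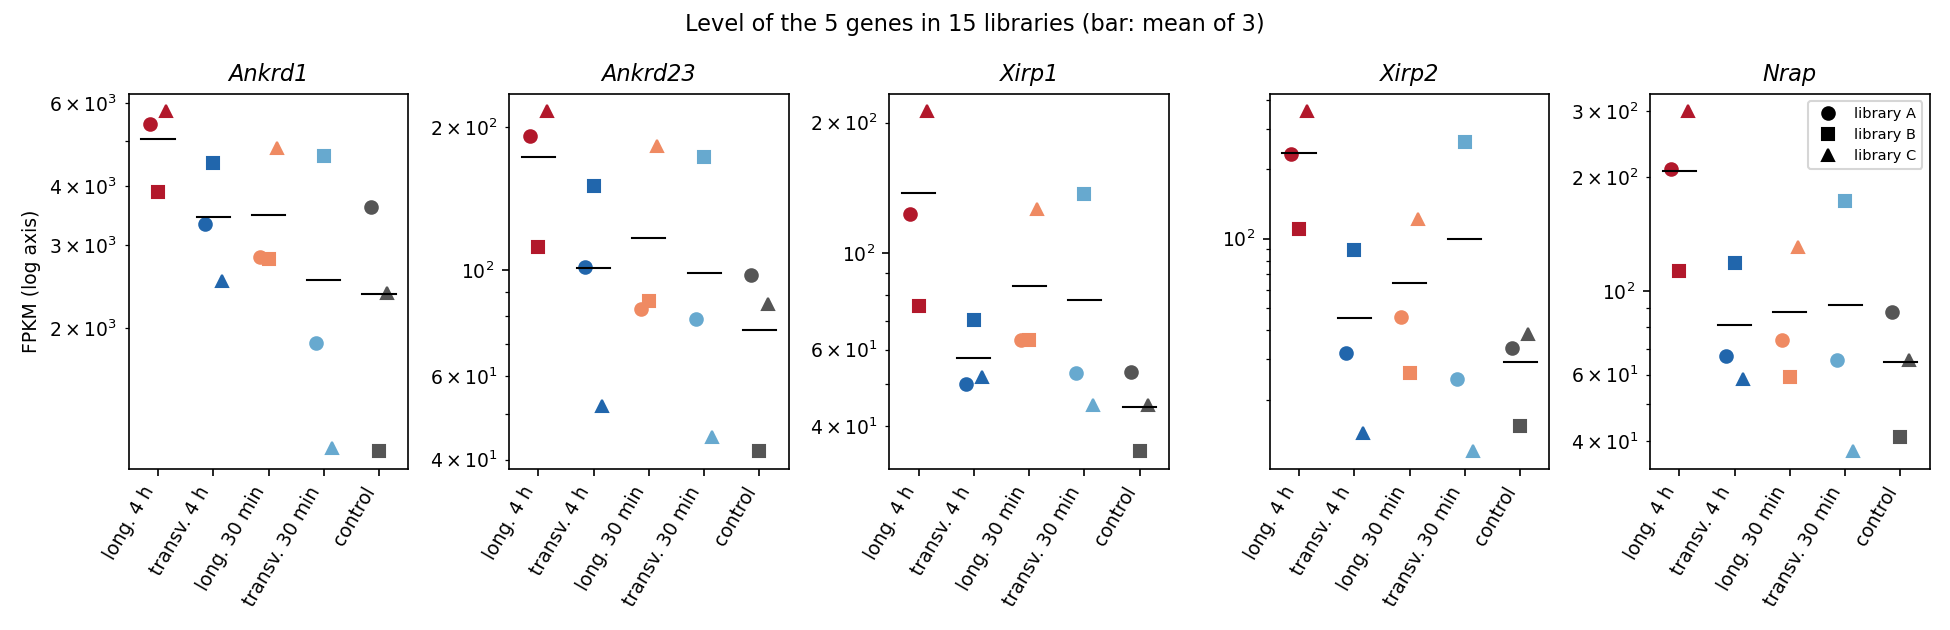
FPKM (log axis) of the 5 genes in each of 15 libraries, by group, with 1 symbol per library and a bar at the mean of 3. The 3 longitudinal 4 h libraries sit above the 3 control libraries for each gene, and transverse 30 min library B sits far above libraries A and C of its group.

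The same libraries were high for all 5 genes. Library C was the highest of longitudinal 4 h for 5 of 5 members, library B of transverse 4 h for 5 of 5, library C of longitudinal 30 min for 5 of 5 and library B of transverse 30 min for 5 of 5. Of all 12114 tested genes, 37.7%, 33.95%, 39.7% and 40.0% were highest in those libraries of their groups, in the same sequence. Longitudinal 4 h library C ranked first of the 15 libraries for each member. Control library B was lowest of its group for 5 of 5 members, and so were longitudinal 4 h library B and transverse 30 min library C. In longitudinal 4 h, longitudinal 30 min and transverse 30 min the high library was also the shallowest of its group, at a relative depth of 0.777, 0.829 and 0.671 in that sequence, and control library A (0.850), highest of its group for 4 of 5 members, was the shallowest control library. Transverse 4 h library B (0.952) was the deepest of its group. The part of depth in these levels was not tested.

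Within-group spread was large. The residual SD on the log2(FPKM + 1) scale was 0.68 for Ankrd1, 0.72 for Ankrd23, 0.59 for Xirp1, 1.36 for Xirp2 and 0.73 for Nrap, where the median gene had 0.11. These values exceeded those of 98.3% to 99.5% of tested genes. The first principal component of the tested genes (30.2% of variance) placed the libraries in a similar order. Scores ran from 36.1 for longitudinal 4 h library C, with 17.0 for transverse 30 min library B, down to -24.4 for control library B. The members were among the genes used, and the sign, which is arbitrary, was set to follow Xirp2.

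**Figure D2:**
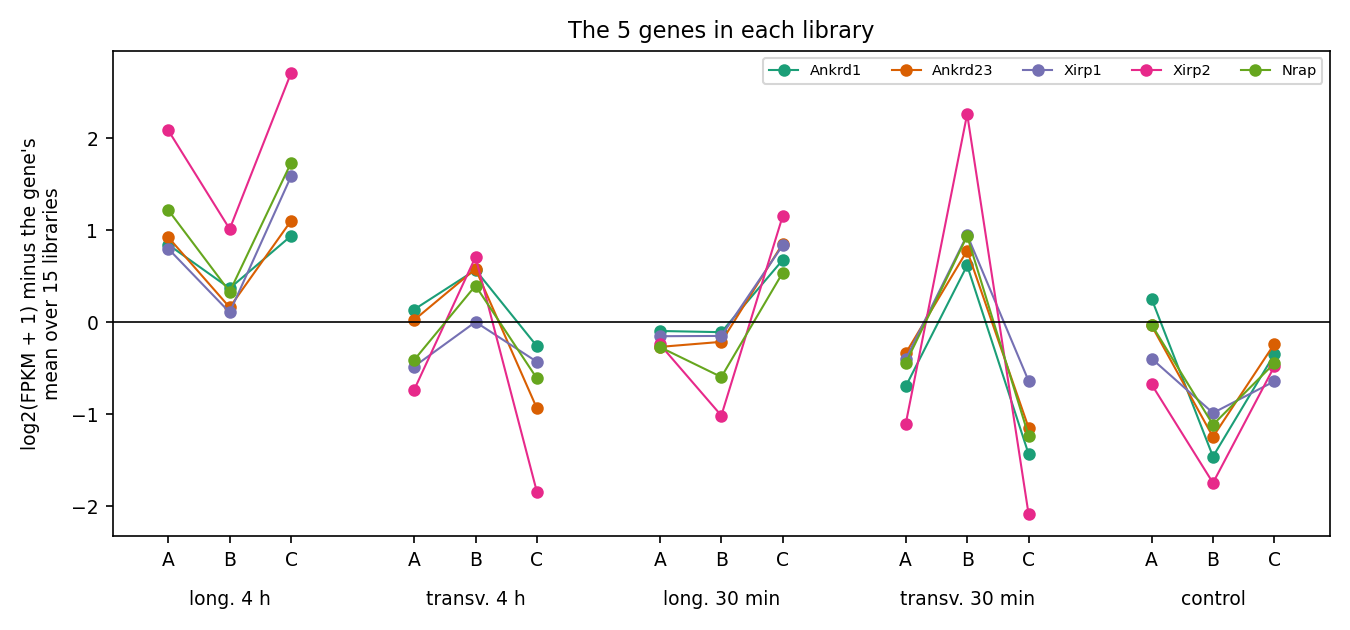
Level of each gene in each library as log2(FPKM + 1) minus that gene's mean over 15 libraries, with lines joining libraries of 1 group. The 5 genes go up and down together within groups, and Xirp2, with a residual SD of 1.36, has the widest swings.

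Smooth muscle and pericyte markers (7 of 7 in the table) moved, as a sum, with most of the same libraries. Their summed level was 1070, 984 and 1692 FPKM in the longitudinal 4 h libraries, 801, 902 and 528 FPKM in transverse 4 h, 849, 909 and 1716 FPKM in longitudinal 30 min, 784, 1417 and 459 FPKM in transverse 30 min, and 817, 532 and 883 FPKM in control. In control the sum was highest in library C, while 4 of 5 members were highest in library A. Most of the sum came from Acta2, Tagln and Cnn1, while the smooth muscle myosin gene Myh11 averaged 0.948 FPKM. Over all libraries Mcam lay between 47.9 and 152 FPKM, Pdgfrb between 32.2 and 39.8 and Rgs5 between 2.27 and 5.94. Of the 7 markers, 0 were called in any of the 10 comparisons, which called between 0.0165% and 20.7% of all genes. Their median log2 difference from control was 0.51 in longitudinal 4 h and 0.32 in longitudinal 30 min. It was 0.01 in each transverse group, and 0.60 for longitudinal against transverse stretch at 4 h. The summed skeletal muscle markers moved with most of the same libraries. They were highest of their groups in longitudinal 4 h library C (762 FPKM), longitudinal 30 min library C (872 FPKM) and transverse 30 min library B (843 FPKM), and lowest in longitudinal 4 h library B (423 FPKM), transverse 30 min library C (545 FPKM) and control library B (523 FPKM). In transverse 4 h, library B was instead the lowest (557 FPKM). The part of either marker list in the results was not tested.

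After 4 h of longitudinal stretch, all 5 genes were higher than in control cells by the fitted means. The log2 difference was 2.91 ± 1.07 for Xirp2, 1.62 ± 0.55 for Nrap, 1.51 ± 0.44 for Xirp1, 1.24 ± 0.54 for Ankrd23 and 1.23 ± 0.51 for Ankrd1 (SE). The members' median was 1.51, against -0.01 over all genes. At an adjusted p under 0.05 in limma, 1 of 5 members (Xirp1) was called, where 20.7% of all genes were. The groups did not overlap, with stretch higher, for 5 of 5 members and for 20.9% of all genes. The choice of the genes fixed these directions, so neither count is evidence for them.

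That single call depended on the libraries used. It was 0 of 5 without control library B, control library C, longitudinal 4 h library A or longitudinal 4 h library C, 2 of 5 without transverse 30 min library C or longitudinal 4 h library B, and 4 of 5 without transverse 30 min library B. Over all 12114 genes, calls ran from 792 without control library B to 3244 without transverse 30 min library B. The log2 difference stayed above 0 for each member in all 15 such fits, with its lowest value of 0.76 for Ankrd1 without control library B. Leaving out a library of another group cannot change this difference, only its adjusted p. The authors' deposited table gave 4 of 5 members a q-value under 0.05 in this comparison: Xirp2 (log2 fold 3.02, q = 5.13e-12), Xirp1 (1.65, q = 4.26e-08), Nrap (1.70, q = 4.61e-07) and Ankrd23 (1.22, q = 4.93e-07). Ankrd1 had a log2 fold of 1.11 and q = 0.372 in the authors' deposited table, which had 795 of 13657 genes under 0.05. Those q-values describe the same groups, and the genes were chosen with earlier results known, so 4 of 5 is not separate evidence.

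After 4 h of transverse stretch, the log2 differences from control were 0.67 ± 0.51 for Ankrd1, 0.39 ± 0.54 for Ankrd23, 0.37 ± 0.44 for Xirp1, 0.34 ± 1.07 for Xirp2 and 0.32 ± 0.55 for Nrap (SE). None was called (0 of 5), where 0.0578% of all genes were, and 0 of 5 lay wholly above control, where 10.9% of all genes did. Single libraries moved these values. Without control library B they were 0.19 for Ankrd1, 0.02 for Ankrd23, 0.21 for Xirp1, -0.05 for Xirp2 and 0.03 for Nrap, and without transverse 4 h library B they were 0.02 for Nrap and -0.33 for Xirp2. The highest values over the 15 leave-outs were 1.05 for Ankrd1, 0.81 for Ankrd23, 0.51 for Xirp1, 0.95 for Xirp2 and 0.57 for Nrap.

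After 30 min of longitudinal stretch, the log2 differences from control were 0.93 ± 1.07 for Xirp2, 0.85 ± 0.44 for Xirp1, 0.68 ± 0.51 for Ankrd1, 0.63 ± 0.54 for Ankrd23 and 0.42 ± 0.55 for Nrap (SE). No member was called (0 of 5), where 0.446% of genes were. Xirp1 alone of the 5 lay above control in every library (1 of 5), which held for 10.6% of all genes. With single libraries left out the differences stayed above 0 but moved widely. They lay between 0.20 and 1.06 for Ankrd1 and between 0.26 and 0.87 for Ankrd23, lowest without control library B and highest without control library A. They lay between 0.34 and 1.43 for Xirp2, between 0.10 and 0.67 for Nrap and between 0.52 and 1.02 for Xirp1, each lowest without longitudinal 30 min library C. Xirp1 was also the 1 member with q under 0.05 in the authors' deposited table (log2 fold 0.95, q = 0.0142), among 168 genes.

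Transverse stretch for 30 min gave log2 differences from control of 0.66 ± 1.07 for Xirp2, 0.64 ± 0.44 for Xirp1, 0.28 ± 0.55 for Nrap, 0.27 ± 0.54 for Ankrd23 and 0.01 ± 0.51 for Ankrd1 (SE). No member was called (0 of 5), where 0.314% of genes were. These differences rested on library B. Without it they were -0.63 for Xirp2, 0.15 for Xirp1, -0.31 for Nrap, -0.24 for Ankrd23 and -0.55 for Ankrd1. Without control library B, those of Ankrd1 (-0.46), Ankrd23 (-0.10) and Nrap (-0.01) were also below 0. The authors' deposited table gave q under 0.05 to 0 of 5 members for either duration of transverse stretch. Of all 13657 genes, 53 had such a q at 30 min and 35 at 4 h, so 0 of 5 does not set the members apart.

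**Figure D3:**
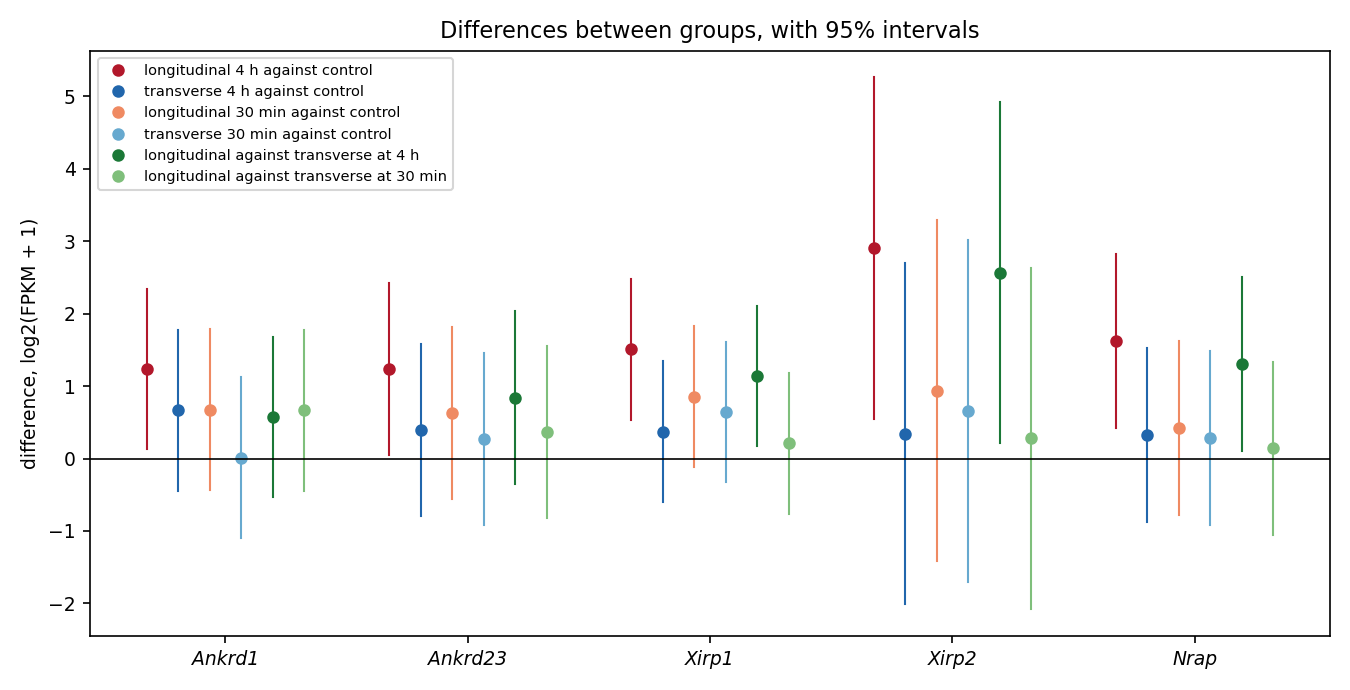
Difference of the group means on the log2(FPKM + 1) scale for each gene, with 95% intervals from limma, for stretch against control and for longitudinal against transverse stretch. The longitudinal 4 h points lie highest against control, at 1.23 to 2.91, and most of the other intervals cross 0.

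Longitudinal and transverse stretch were then compared with each other, which is the question of the series. At 4 h, Xirp2 was 2.56 ± 1.07 log2 units higher under longitudinal stretch (95% interval 0.21 to 4.92, adjusted p = 0.172), Nrap 1.305 ± 0.549 (0.11 to 2.504, adjusted p = 0.172) and Xirp1 1.14 ± 0.44 (0.17 to 2.10, adjusted p = 0.155). The differences of Ankrd23 (0.84 ± 0.54, adjusted p = 0.330) and Ankrd1 (0.57 ± 0.51, adjusted p = 0.482) had intervals that included 0. None of the 5 passed the adjusted threshold, which 0.0165% of all genes passed. Xirp1 and Xirp2 did not overlap between the axes (2 of 5 members), as was the case for 16.5% of all genes in this direction. At an unadjusted p under 0.05 there were 3 of 5 members and 3109 of 12114 genes. The genes were chosen with earlier results of these libraries known, so none of these counts is evidence for an axis difference. Over the 15 leave-outs the differences lay between 0.36 and 0.78 for Ankrd1, 0.43 and 1.19 for Ankrd23, 0.76 and 1.498 for Xirp1, 1.95 and 3.23 for Xirp2, and 0.98 and 1.69 for Nrap, with 0 of 5 called in each.

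At 30 min the log2 differences between longitudinal and transverse stretch ran from 0.14 for Nrap to 0.66 for Ankrd1, with adjusted p between 0.816 and 0.954, and 0 of 5 were called, where 0.0248% of genes were. Without transverse 30 min library C, these differences were below 0 for Ankrd23 (-0.10), Nrap (-0.36), Xirp1 (-0.10) and Xirp2 (-0.61). They were also below 0 for the same members without longitudinal 30 min library C, at -0.01, -0.19, -0.12 and -0.32 in that sequence, and for Xirp2 without transverse 30 min library A (-0.12).

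Averaged over both durations, longitudinal exceeded transverse stretch by 0.60 ± 0.38 for Ankrd23 to 1.42 ± 0.76 for Xirp2 (log2, SE), with adjusted p between 0.197 and 0.321. This called 0 of 5 members, where 0.14% of genes were called. Without transverse 30 min library B, Xirp1 (0.92, adjusted p = 0.0377) and Xirp2 (2.06, adjusted p = 0.0346) were called, together with 2458 genes in all in place of 17. Without transverse 30 min library C, the differences were 0.38 for Ankrd1, 0.37 for Ankrd23, 0.47 for Nrap and 0.98 for Xirp2.

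Between 30 min and 4 h, the 4 h minus 30 min differences under longitudinal stretch were 1.97 ± 1.07 for Xirp2 and 1.205 ± 0.549 for Nrap on the log2 scale (SE), with adjusted p = 0.286 and 0.205. Xirp1, Ankrd23 and Ankrd1 differed by 0.65 ± 0.44, 0.61 ± 0.54 and 0.56 ± 0.51 (adjusted p between 0.397 and 0.532). None was called (0 of 5), where 4.98% of genes were. Without longitudinal 4 h library C the Xirp1 difference was 0.27, and without longitudinal 30 min library C those of Ankrd23 and Xirp2 were 0.97 and 2.57. Under transverse stretch the 4 h minus 30 min differences ran from -0.32 for Xirp2 to 0.65 for Ankrd1 (adjusted p between 0.636 and 0.983), with 0 of 5 called and 0.338% of genes called. Without transverse 30 min library B the Xirp2 value was 0.97 and the Xirp1 value 0.22.

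The test of whether the axis difference changed with duration, the interaction term, gave 2.29 ± 1.51 for Xirp2, 1.17 ± 0.78 for Nrap, 0.93 ± 0.63 for Xirp1, 0.48 ± 0.77 for Ankrd23 and -0.09 ± 0.72 for Ankrd1 (log2, SE). Adjusted p lay between 0.833 and 0.988, with 0 of 5 members called and 0.0248% of genes. The interval for Xirp2 ran from -1.05 to 5.62, which bounds that difference only loosely. Without transverse 30 min library B the interaction was 0.9987 for Xirp2, 0.57 for Nrap, 0.44 for Xirp1, -0.03 for Ankrd23 and -0.66 for Ankrd1.

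The 5 transcripts followed each other closely over the 15 libraries, described here as Pearson r on log2(FPKM + 1) with libraries that share groups. The highest r was between Xirp2 and Nrap (0.970) and the lowest between Ankrd1 and Xirp1 (0.815). With the group means removed, r lay between 0.833 and 0.953. Other genes were as close. Of 8235 genes averaging at least 5 FPKM, 84 had r above 0.9 with Ankrd1, 183 with Ankrd23, 299 with Xirp1, 314 with Xirp2 and 331 with Nrap, so the members are not set apart from those genes by this measure.

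The genes most like Ankrd1 were Tnfrsf12a, the receptor of the cytokine TWEAK (r = 0.973), Slmap (0.972), the CTP synthase gene Ctps (0.971), the kinesin gene Kif5b (0.963) and Spsb4 (0.961). Those most like Ankrd23 were Slitrk4 (0.980), Hspa1l (0.980), Stk38l (0.977), Filip1 (0.976) and Bmper (0.9747). For Xirp1 they were Ppp1r12a, a subunit of myosin phosphatase (0.985), Zfp568 (0.985), Dusp27 (0.978), Bag2 (0.9747) and the hexokinase gene Hk2 (0.973). Xirp2 was closest to Csrp3, the muscle LIM protein of the Z-disc (0.984), ORF63 (0.982), Enah, an actin polymerisation factor (0.982), Atp13a3 (0.981) and the growth factor gene Tgfb2 (0.980). Nrap was closest to Itga5, the fibronectin receptor subunit (0.989), Fam105b (0.988), Akap2 (0.987), Hspa4 (0.987) and Azin1 (0.986).

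Csrp3 shows the shared pattern at a high level. It had 2515, 1461 and 4086 FPKM in the longitudinal 4 h libraries, 833, 1450 and 582 FPKM in transverse 4 h, 1124, 888 and 2331 FPKM in longitudinal 30 min, 891, 3148 and 518 FPKM in transverse 30 min, and 993, 517 and 1030 FPKM in control. The libraries that were highest for the members in the 4 stretch groups were also highest for Csrp3. It was picked here for its r with Xirp2 over these same libraries, so this likeness follows from the choice.

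Genes known to work with the 5 proteins were followed as lists, leaving the members out, in the fit with all libraries. Over all genes, calls in longitudinal 4 h against control numbered 2503 in that fit, 792 without control library B and 3244 without transverse 30 min library B. Counts of list genes in that comparison are to be read against the 20.7% called among all genes. Of 16 tested partners at the titin I-band and Z-disc, 0 were called higher and 1 lower in longitudinal 4 h against control, and the list median was 0.13 (log2), against -0.01 over all genes. The gene that fell was Fhl2, a LIM domain protein that binds titin (-0.44 ± 0.14, adjusted p = 0.0444). Csrp3 (1.61 ± 0.64, adjusted p = 0.0921), the titin ligase relative Trim54 (0.88 ± 0.36, adjusted p = 0.0951) and the actin cross-linker Palld (0.32 ± 0.12, adjusted p = 0.0680) did not pass. Ankrd2, the third muscle ankyrin repeat gene, was not analysed here.

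Among 18 partners of Xin proteins and intercalated disc adhesion genes, 3 rose and 1 fell in longitudinal 4 h against control, a share close to the 20.7% of all genes, with a list median of 0.08. Those that rose were the adhesion linker vinculin, Vcl (0.96 ± 0.25, adjusted p = 0.0217), p120 catenin, Ctnnd1 (0.39 ± 0.12, adjusted p = 0.0430), and the junction scaffold Tjp1 (0.32 ± 0.10, adjusted p = 0.0340). The desmosomal cadherin Dsc2 fell (-0.23 ± 0.07, adjusted p = 0.0487). Vcl had 99.8, 92.9 and 126 FPKM in longitudinal 4 h, against 65.9, 43.8 and 53.6 FPKM in control. These groups did not overlap.

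Of 10 tested nebulin family genes and Nrap partners, 2 rose and 1 fell in the same comparison, where 20.7% of all genes were called, so 3 of 10 does not set the list apart. The list median was 0.46. Kbtbd10, a Kelch protein that binds Nrap and is now named Klhl41, rose by 0.84 ± 0.20 (adjusted p = 0.0160), alongside Vcl, and the talin gene Tln2 fell (-0.34 ± 0.07, adjusted p = 0.00839). The filamin gene Flnc, whose product binds Xin proteins, differed by 1.38 ± 0.48 without passing (adjusted p = 0.0605). Kbtbd10 had 46.9, 29.3 and 63.8 FPKM in longitudinal 4 h, against 25.9, 23.3 and 23.9 FPKM in control.

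Of 10 other actin-binding and cytoskeletal proteins of muscle, 1 rose and 0 fell in longitudinal 4 h against control. That share was below the 20.7% of all genes called, and the list median was 0.54. The gene that rose was Lmod2, a leiomodin that nucleates actin and sets thin filament length (0.97 ± 0.21, adjusted p = 0.0110). Lmod3 (1.15 ± 0.39, adjusted p = 0.0537), Lmod1 (0.74 ± 0.26, adjusted p = 0.0605) and Synpo2l (1.89 ± 0.71, adjusted p = 0.0779) did not pass. Among 28 other tested genes whose symbol starts with Ankrd, 3 rose and 3 fell, about the share called among all genes (20.7%). They included Ankrd27 (0.38 ± 0.05, adjusted p = 0.00368) and Ankrd28 (0.31 ± 0.05, adjusted p = 0.00529), which rose, and Ankrd9 (-0.52 ± 0.10, adjusted p = 0.00810) and Ankrd34a (-0.43 ± 0.09, adjusted p = 0.00994), which fell. These genes share the ankyrin repeat with Ankrd1 by name and are not members of the muscle family.

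Transcription factors reported for these genes included the early response genes, which moved at 30 min. Of 20 tested, 4 rose in longitudinal 30 min and 4 in transverse 30 min against control, and 0 fell in either, where 0.446% and 0.314% of all genes were called in that sequence. In longitudinal 30 min these were Fos (4.42 ± 0.17, adjusted p = 1.19e-08), Egr1 (3.71 ± 0.16, adjusted p = 5.83e-08), Atf3 (3.35 ± 0.36, adjusted p = 0.000503) and Jun (2.05 ± 0.24, adjusted p = 0.000725). In transverse 30 min the same 4 genes were called, at 4.06, 3.45, 2.63 and 2.10 in that sequence. In longitudinal 4 h against control, where 20.7% of all genes were called, 4 of 20 rose and 2 fell, including Atf3 (1.95 ± 0.36, adjusted p = 0.00738), Fos (0.97 ± 0.17, adjusted p = 0.00559) and Egr1 (0.68 ± 0.16, adjusted p = 0.0160), which rose, and the cardiac factor Nkx2-5 (-0.45 ± 0.11, adjusted p = 0.0153), which fell. Fos had 81.9, 89.2 and 75.2 FPKM in longitudinal 30 min, against 3.30, 3.04 and 2.32 FPKM in control. Its libraries were close to each other, unlike those of the 5 muscle genes.

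In transverse 4 h against control, and in longitudinal against transverse stretch at either duration, 0 genes of any of these lists were called. Of all genes, 0.0578% were called in transverse 4 h against control. The axis comparison called 0.0248% at 30 min and 0.0165% at 4 h, so counts of 0 do not set the lists apart. In 4 h against 30 min, Fos, Egr1, Jun and Atf3 fell under both axes, with log2 differences of -3.45 for Fos (adjusted p = 2.51e-07) and -3.03 for Egr1 (adjusted p = 6.81e-07) under longitudinal stretch and of -3.74 for Fos (adjusted p = 9.46e-08) and -3.23 for Egr1 (adjusted p = 2.39e-07) under transverse stretch. Of the other lists, Tln2 (log2 difference -0.38), Dsc2 (-0.30), Ankrd9 (-0.40) and Ankrd34a (-0.34) fell in longitudinal 4 h against longitudinal 30 min, with adjusted p between 0.0143 and 0.0470, in a comparison that called 4.98% of all genes. In the same comparison under transverse stretch, 0 genes of those other lists passed, where 0.338% of all genes did. In the interaction of axis and duration 0 passed, where 0.0248% of all genes did. In the axis comparison at 4 h the lowest adjusted p among the transcription factors was 0.109, shared by Fos (0.65 ± 0.17), Nkx2-5 (-0.41 ± 0.11) and Atf3 (1.38 ± 0.36).

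**Figure D4:**
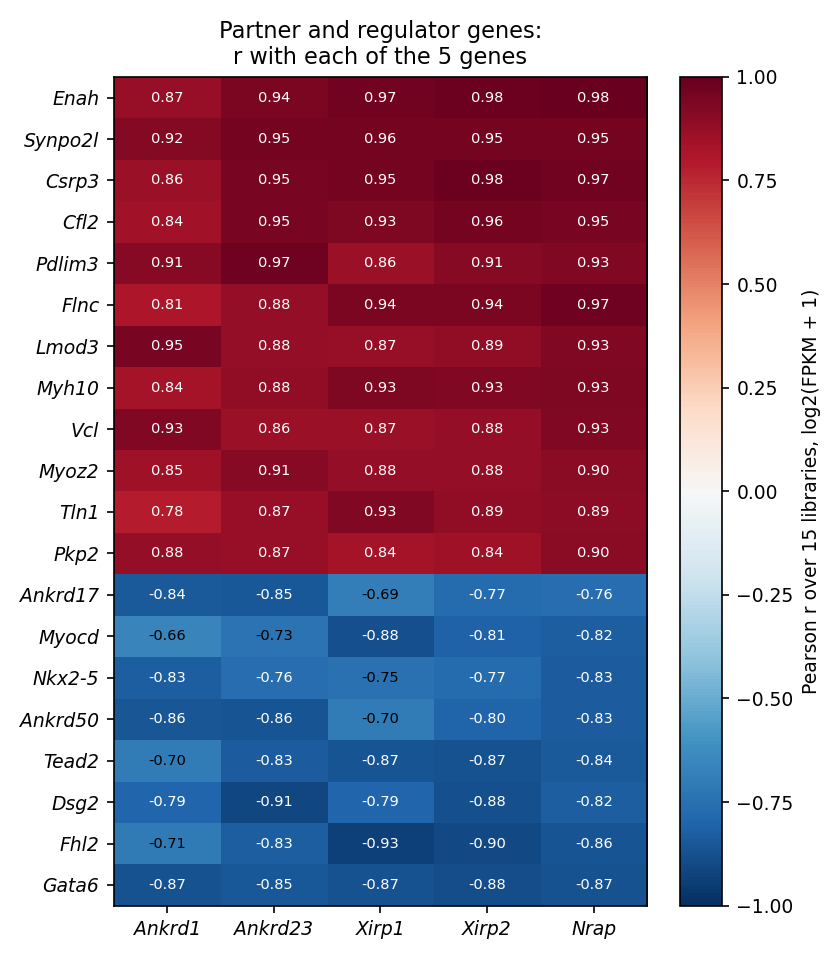
Pearson r over 15 libraries on log2(FPKM + 1) between each of the 5 genes (columns) and the 12 list genes of highest and 8 of lowest mean r (rows), picked by their values. Enah, Synpo2l and Csrp3 lie at the top with mean r of 0.950, 0.947 and 0.944, and Fhl2 and Gata6 at the bottom with -0.846 and -0.869.

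Across libraries, Enah (mean r with the 5 genes of 0.950), Synpo2l (0.947), Csrp3 (0.944), the actin severing factor Cfl2 (0.924) and Pdlim3, a PDZ and LIM domain protein of the Z-disc (0.914), tracked the members most closely among list genes, and the GATA factor Gata6 (-0.869), Fhl2 (-0.846) and the desmosomal cadherin Dsg2 (-0.839) ran opposite to them. These genes were picked after their r values were seen. Gata6 had r between -0.845 and -0.883 with each of the 5.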

How the data were processed

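The libraries used an unstranded TruSeq poly(A) kit, per the labels' protocols. The submitters' processing notes list mm9 as the build and FastQC, TopHat 1.4.1 and Cufflinks 2.0.2 as tools, without roles. Without strand, antisense reads cannot be told apart. The authors deposited 1 table of FPKM values per library, group FPKM values, log2 fold changes against control, p-values and q-values, per the file headers. How the authors tested was not given in the sources used here. No column of another series was present (0).

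From the deposited FPKM values, limma 3.58.1 (R 4.3.3, trend and robust) was fitted on log2(FPKM + 1) to 12114 genes with at least 1 FPKM in at least 3 of 15 libraries, with 5 group means and 10 residual degrees of freedom. The log scale understates changes of low genes. Tests were two-sided, with Benjamini-Hochberg adjustment across the tested genes in each of 10 comparisons and a threshold of 0.05. The fit was tested on simulated data. The members, lists, tests and the rule for named genes (the members, up to 4 genes of smallest p per list and comparison, and the 5 genes of highest r per member) were chosen with earlier results of these data known. Comparisons with control share the same control libraries. The 3 devices per group are biological replicates per the series design.

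Relative depth was the most common ratio of low FPKM values (gene mean under 0.6) between libraries, taken as the median over the 14 others. Starts in the table count from 0 and were raised by 1, since the RefSeq span equalled end minus start for 3165 of 12194 genes and was 1 longer for 302. Alternatives were a pseudocount of 0.1, no filter, only the groups compared, a replicate block, median centring, neither trend nor robust, each library left out and, chosen after seeing the data, array weights. Python 3.11.15, pandas 2.3.3 and matplotlib 3.10.9 were used.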

Additional observations from a re-analysis of the deposited data

How the results depend on the processing

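Replicate spread limits these results: 3 libraries per group, 1 high library in most groups, and no read counts. The 5 members differed from control in longitudinal 4 h in the same direction under all 7 alternatives and all 15 leave-outs. The choice of the genes fixed that direction. Several settings, such as the replicate block or leaving out a library of another group, cannot change a difference of group means. The shared direction is therefore not a test of it. Deviations of same-letter libraries had a median r of -0.0002 (-0.502 to 0.513, 30 pairs), against 0.0146 for different letters. These pairs pool all groups, so high and low values can cancel in the median. For the members, library B was the highest of both transverse groups and library C of both longitudinal groups. A link between same-letter libraries within an axis was not tested. The cause of the changes below was not tested.

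Members called in longitudinal 4 h against control numbered 1 as reported, 2 with only the groups compared, 0 with the replicate block, 2 with neither trend nor robust, 5 with array weights and 0 to 4 with a library left out. Over all 12114 genes, calls there numbered 2503 as reported, 1661 with the replicate block and 4855 with array weights. The member counts are to be read against these totals. Totals for only the groups compared and for neither trend nor robust are not given here. In longitudinal against transverse stretch at 4 h, array weights called 2 members in place of 0, among 1834 of all 12114 genes. For the mean of both durations array weights called 1 (among 1867 genes) and leave-outs 0 to 2 (among 5 to 2458 genes) in place of 0.

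Genes called in longitudinal 4 h against control numbered 2503, 1661 with the replicate block, 4855 with array weights and 792 to 3244 over leave-outs. For 4 h against 30 min, longitudinal, 603 became 21 with only the groups compared, 207 with the replicate block, 1666 with array weights and 65 to 932 over leave-outs. For 4 h against 30 min, transverse, 41 became 27 with the replicate block, 809 with array weights and 21 to 44 over leave-outs. Longitudinal against transverse at 4 h had 2, with 1 at a pseudocount of 0.1, 8 with only the groups compared, 1834 with array weights and 2 to 173 over leave-outs. At 30 min it had 3, with 5 without the filter, 8 with only the groups compared and 3 to 6 over leave-outs. The mean of both durations had 17, with 9 each for only the groups compared, the replicate block and median centring, 1867 with array weights and 5 to 2458 over leave-outs. Array weights gave 143 in place of 54 for longitudinal 30 min against control (leave-outs 36 to 70), 66 in place of 38 for transverse 30 min (26 to 36), 264 in place of 7 for transverse 4 h (16 with only the groups compared, 5 to 10 over leave-outs) and 5 in place of 3 for the interaction (3 to 6).

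With array weights the difference changed sign for Ankrd1 (-0.21) and Xirp2 (-0.22) in transverse 30 min against control, and for Xirp1 (0.0235) and Xirp2 (0.56) in 4 h against 30 min, transverse. Over leave-outs the sign changed for some members. In transverse 30 min against control the ranges were -0.55 to 0.48 for Ankrd1, -0.24 to 0.73 for Ankrd23, -0.31 to 0.77 for Nrap and -0.63 to 1.55 for Xirp2. In transverse 4 h against control it was -0.33 to 0.95 for Xirp2. In longitudinal against transverse at 30 min they were -0.10 to 0.87 for Ankrd23, -0.36 to 0.73 for Nrap, -0.12 to 0.70 for Xirp1 and -0.61 to 1.56 for Xirp2. In 4 h against 30 min, transverse, they were -0.33 to 0.63 for Ankrd23, -0.46 to 0.63 for Nrap, -0.58 to 0.22 for Xirp1 and -1.20 to 0.97 for Xirp2. In the interaction they were -0.66 to 0.37 for Ankrd1 and -0.0254 to 0.94 for Ankrd23. Of the member differences, 336 values under the other alternatives and 707 under leave-outs kept their direction and side of the threshold. Many of these settings cannot change the difference itself.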
